A study of Homo sapiens with 9 samples.

Results

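The genes described here are MYC, the genes of its MAX network (MAX, MXI1, MXD1, MXD4 and MNT) and the MYB family (MYB, MYBL1 and MYBL2), 9 genes chosen by name. They were read through the probe sets that the platform annotation gives to 1 gene. This left 18 probe sets of 8 genes, out of 19775 genes with such a probe set. MXD4 has no value here, because its 3 probe sets are annotated together with the microRNA gene MIR4800.

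RNA came from A549, a human lung adenocarcinoma cell line, grown in serum with no further treatment and hybridised to 9 Affymetrix arrays. In the 3 si-Med23 samples interfering RNA was directed at MED23, a tail subunit of the Mediator complex. In the 3 si-Elk1 samples it was directed at ELK1, an ETS transcription factor phosphorylated by ERK, and the 3 si-Ctrl samples had a control RNA. Each knockdown sample carried a different oligo, named A, B or C, and the design text calls these different cell lines, so a knockdown's spread holds that between oligos. Whether the si-Ctrl samples came from separate cultures is not stated, so their own spread may be technical, and p-values measure only the spread between these 9 samples.

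MYC is a basic helix-loop-helix transcription factor that binds DNA as a heterodimer with MAX, mostly at E-box sites, and drives genes of ribosome production, metabolism and growth. MXI1, MXD1, MXD4 and MNT compete with MYC for MAX and repress transcription at the same sites. The MYB proteins bind DNA through related repeats. MYB is best known from blood progenitors, MYBL1 from male germ cells, and MYBL2 from dividing cells of most kinds, where it joins the MuvB complex and FOXM1 at genes of mitosis. MYC is also a known end point of ERK signalling.

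Signals are given as log2(signal + 1), and a level is compared only with the same probe set on other arrays. A gene was represented by its probe set with the highest mean, and 12616 genes were tested, those whose probe set mean was over the median of all such means (log2 6.05, or 65.4 in linear signal). All 8 genes passed that filter. Of their 18 probe sets 14 did. MYB lay just inside, with a mean of 6.18, and the second MNT probe set just outside, with 5.45. Changes were tested with limma in 1 fit of the 9 arrays, with Benjamini-Hochberg adjustment over the 12616 genes and a threshold of 0.05. The number of arrays limits the precision, and in such bulk RNA fewer cells of a type and less RNA per cell cannot be told apart.

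The median signal of an array was between 64.9 and 88.2. MED23 was left at 18.2% of its control level in si-Med23 and ELK1 at 23.8% in si-Elk1 (limma adjusted p = 0.00184 and 0.00684). In si-Elk1 MED23 was at 73.6% of its control level, which did not pass (adjusted p = 0.325). It read 8.87, 9.02 and 8.18 with the si-Elk1 oligos A, B and C, against 9.27, 9.05 and 9.08 in si-Ctrl. The array's added controls differed between groups. The 24 poly-A spike probe sets averaged log2 9.22 ± 0.12 (SD, n = 3) in si-Med23, 8.25 ± 0.29 in si-Elk1 and 7.61 ± 0.20 in si-Ctrl. Scaling on them would shift every log2 fold change against si-Ctrl by -1.61 in si-Med23 and by -0.64 for si-Elk1. These shifts would be -0.50 and -0.18 with the hybridization controls, and 0.23 and -0.14 with each array's median set equal. In the comparisons of si-Med23 with si-Ctrl, si-Elk1 with si-Ctrl and si-Med23 with si-Elk1, the share of called genes that were higher was 51%, 72.1% and 44% as deposited. Median centring made it 74%, 42.2% and 89.5%. Hybridization controls made it 7.29%, 39.2% and 8.34%, and the spikes 0.151%, 1.9% and 0.322%. Directions are therefore relative to the deposited scaling. Of 8 lung epithelial markers 6 were over the filter level, and their summed signal was 84600 to 115000 in si-Med23, 65700 to 84800 in si-Elk1 and 63000 to 70000 in si-Ctrl. NKX2-1, a lung lineage factor, was under the level. The 4 blood markers summed to 538 to 1020, 897 to 1010 and 335 to 434 in the same order of groups, the 5 fibroblast markers to 1760 to 2750, 1320 to 1770 and 803 to 844, and the 4 endothelial markers to 188 to 279, 202 to 355 and 234 to 278. Much of each sum came from 1 gene. Over the arrays of the 3 groups KRT18 gave 48% to 56% of the epithelial sum, and PECAM1 63.3% to 82.2% of the endothelial sum. CD14 gave 88.1% to 92.1% of the blood sum in si-Med23, 68.3% to 80.3% in si-Elk1 and 41.5% to 70% in si-Ctrl. COL1A1 gave 94.5% to 97.8%, 77.5% to 81.4% and 69.4% to 75.9% of the fibroblast sum. CD14 and COL1A1 passed the test in both knockdowns. Of the 6 epithelial markers tested 4 were called higher in si-Med23 and 1 in si-Elk1, and none lower. Other markers were lower in value in si-Med23, such as CD3E at 4.94 against 6.75 in si-Ctrl (adjusted p = 0.0648), and LYZ and COL1A2, both under the level, at 3.10 against 5.53 and 3.42 against 5.15. Some went the other way. CDH5, under the level, read 2.61, 5.92 and 5.88 in si-Med23 against 1.54, 2.14 and 2.46 in si-Ctrl. CD3E read 7.50, 7.95 and 6.83 in si-Elk1 against 6.55, 6.37 and 7.33 in si-Ctrl. PTPRC, the pan-leukocyte marker, stayed under the level in every group mean. No marker was listed at 0, and the part of these differences in the results below was not tested.

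MYBL1 fell in both knockdowns, MXI1 rose in si-Elk1 and was lower in si-Med23 than in si-Elk1, and MYC itself did not pass in any comparison. In si-Med23 against si-Ctrl 2 of the 8 genes fell (MYBL1 and MYB) and none rose, where 39.8% of all tested genes were called, 20.3% higher and 19.5% lower. In si-Elk1 against si-Ctrl 1 rose (MXI1) and 1 fell (MYBL1), where 4.26% of all tested genes were called, 3.07% higher and 1.19% lower. In si-Med23 against si-Elk1 1 was lower (MXI1), where 21.7% were called, 9.54% higher and 12.2% lower. The members' share of calls was 25% in each comparison with si-Ctrl, below the share of all genes in si-Med23 and above it in si-Elk1. With 8 genes this share rests on 2 genes each time, and it was 12.5% between the knockdowns. The median log2 fold change of the 8 genes was -0.06, -0.17 and 0.05 in these comparisons, against 0.09, 0.05 and -0.03 for all genes tested. Both knockdowns were set against the same 3 control arrays, so their changes are given side by side and not as separate evidence.

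**Figure D1:**
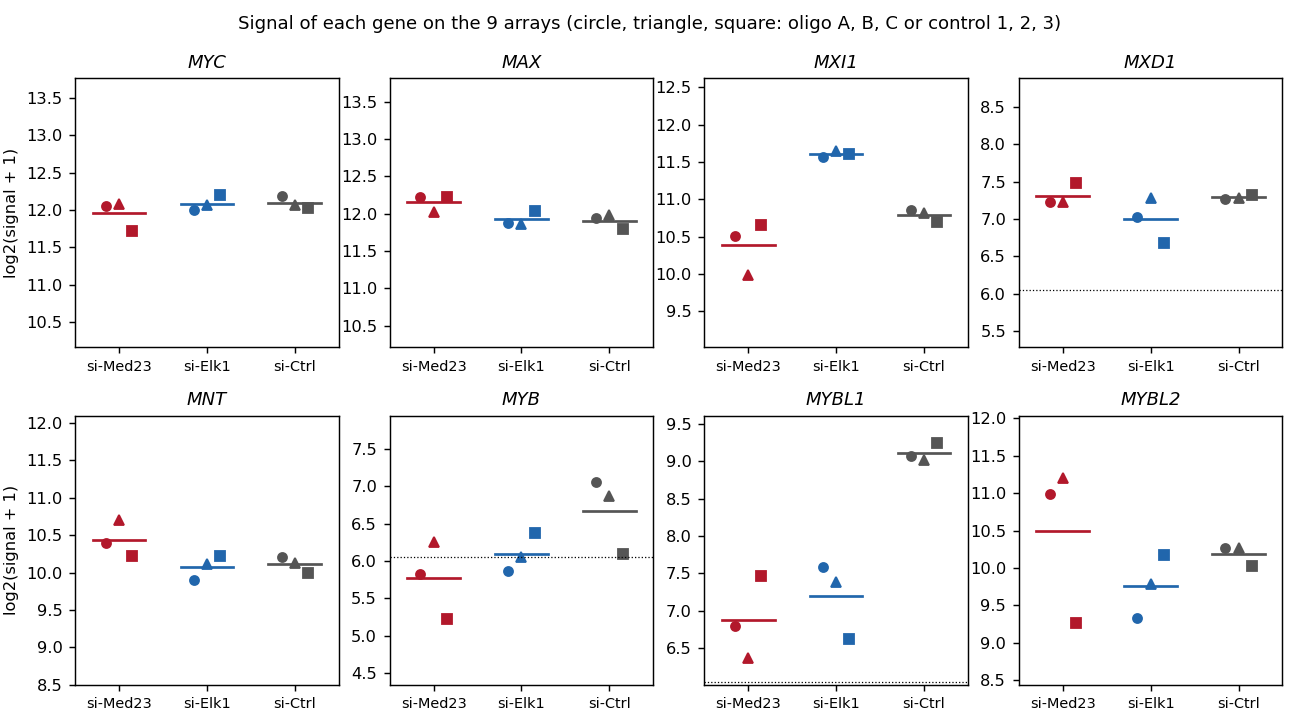
Each panel plots log2(signal + 1) of 1 gene on the 9 arrays by group, with a bar at the group mean and every axis spanning the same log2 range; the dotted line is the filter level of 6.05. For MYBL1 all 6 knockdown arrays lie at 7.58 or below and all 3 control arrays at 9.02 or above, and for MXI1 the si-Elk1 arrays lie above all others.

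MYC read log2 12.06, 12.08 and 11.72 on the si-Med23 arrays (A, B and C), 12.00, 12.07 and 12.20 with the si-Elk1 oligos A, B and C, and 12.19, 12.07 and 12.03 in si-Ctrl. The array with si-Med23 oligo C was the lowest of the 9, and the ranges of the groups overlapped. The log2 fold change of MYC was -0.14 ± 0.13 (SE, n = 3 arrays per group) in si-Med23, with a 95% interval from -0.44 to 0.16 (limma adjusted p = 0.427). In si-Elk1 it was -0.01 ± 0.13, with an interval from -0.31 to 0.30 (adjusted p = 0.973). Between the knockdowns it was -0.13 ± 0.13, with an interval from -0.44 to 0.17 (adjusted p = 0.491). Those values hold for the deposited scaling. On the hybridization controls MYC was lower in si-Med23 than in si-Ctrl (-0.64, adjusted p = 0.0089) and than in si-Elk1 (-0.45, adjusted p = 0.04999), and did not pass in si-Elk1 against si-Ctrl (-0.19, adjusted p = 0.445). With poly-A spike scaling MYC fell in both knockdowns, at -1.75 in si-Med23 and -0.65 in si-Elk1 (adjusted p = 3.61e-05 and 0.0399).

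MAX, the shared partner, read 12.22, 12.02 and 12.23 with the si-Med23 oligos, 11.87, 11.86 and 12.04 with the si-Elk1 oligos and 11.94, 11.99 and 11.80 in si-Ctrl. Every si-Med23 array was above every control array, but the log2 fold change of 0.25 ± 0.12 did not pass (adjusted p = 0.122), although it did after median centring (0.48, adjusted p = 0.00984). The change in si-Elk1 was 0.02 ± 0.12 (adjusted p = 0.935). MAX has 4 further probe sets over the level, and they disagreed. Tested on their own, with adjustment over 23060 probe sets, 1 of them rose in si-Med23, by 0.86 ± 0.26 (adjusted p = 0.0338). It read 8.90, 8.72 and 8.90 in si-Med23 against 7.47, 7.92 and 8.54 in si-Ctrl. Its _x_at suffix marks probes that can also match other transcripts. The other 3 had log2 fold changes of 0.34, 0.09 and -0.46 in si-Med23, none of which passed.

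Among MXI1, MXD1 and MNT, the tested members that oppose MYC, MXI1 was the gene with a called change as deposited. It read 11.56, 11.64 and 11.61 with the si-Elk1 oligos A, B and C and 10.86, 10.81 and 10.70 in si-Ctrl. With the si-Med23 oligos it read 10.51, 9.99 and 10.66, in the order A, B and C. The 3 si-Elk1 arrays were alike and above all others, and the 3 si-Med23 arrays were below all others. In linear signal the means were 1363 in si-Med23, 3113 in si-Elk1 and 1769 in si-Ctrl. MXI1 rose in si-Elk1 by 0.82 ± 0.17 on the log2 scale, or 1.76-fold (adjusted p = 0.0384). In si-Med23 its change was -0.40 ± 0.17, which did not pass (adjusted p = 0.0899). That value moved with single arrays, to -0.20 without that of oligo B (adjusted p = 0.234) and -0.54 without that of oligo C (adjusted p = 0.0451). It also passed with array weights (adjusted p = 0.0473) and on the hybridization controls (-0.90, adjusted p = 0.00494). The direct comparison of si-Med23 with si-Elk1 gave a log2 fold change of -1.22 ± 0.17 (adjusted p = 0.00569), and it passed under all 24 alternatives tried. The call in si-Elk1 was lost under 13 of the 24, among them leaving out any 1 control array (adjusted p = 0.0926, 0.0964 and 0.126) or any 1 si-Elk1 array (0.0823, 0.0796 and 0.0845), and si-Med23 oligo A (0.0506), while its direction held under all 24.

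RefSeq lists 3 starts for MXI1 in build GRCh38.p14. Windows from 250 bases before to 50 bases after each start of 7 of the 9 genes were searched on both strands for the ETS core CGGAAG. Those of MXI1 are described because it rose when the ETS factor ELK1 was reduced. The core is in 19.5% of 35116 such windows of all genes, a share per window, and MXI1 has 3 windows. It was found once, in 1 of the 3 windows, at position -179 from that start, as its reverse complement, shown in capitals in this window (chr10:110225746-110226045, plus strand):
MXI1: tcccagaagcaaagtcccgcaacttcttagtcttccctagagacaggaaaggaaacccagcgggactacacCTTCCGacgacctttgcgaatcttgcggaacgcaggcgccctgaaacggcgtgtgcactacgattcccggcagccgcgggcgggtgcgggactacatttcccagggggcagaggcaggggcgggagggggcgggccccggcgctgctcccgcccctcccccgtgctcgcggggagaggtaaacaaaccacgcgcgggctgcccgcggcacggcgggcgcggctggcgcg
The core was also in 1 of the 2 MAX windows, at position -105, and MAX had a log2 fold change of 0.02 in si-Elk1. It was in no window of MXD1, MXD4, MNT, MYB or MYBL2. The longer form CCGGAAG, in 10.3% of all windows, was in none of the 3 MXI1 windows and in 1 of the 2 MAX windows. Which start gives the transcript that the probe set reads is not known here, and a match of letters is not a binding site.

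MXD1, a repressor that rises in differentiating cells, read 7.22, 7.22 and 7.49 in si-Med23, 7.02, 7.29 and 6.67 in si-Elk1 and 7.27, 7.28 and 7.32 in si-Ctrl. The groups overlapped in each comparison. Its log2 fold changes were 0.02 ± 0.16 in si-Med23 (adjusted p = 0.92) and -0.30 ± 0.16 in si-Elk1 (adjusted p = 0.291). A second MXD1 probe set gave 0.12 and -0.28, and the dimmest was under the filter level on all 9 arrays. MNT, a broadly expressed repressor that also pairs with MAX, read 10.39, 10.70 and 10.22 in si-Med23, 9.90, 10.11 and 10.22 in si-Elk1 and 10.21, 10.13 and 9.99 in si-Ctrl. Its si-Med23 arrays were all above the others, the lowest by little, and its log2 fold changes of 0.33 ± 0.15 against si-Ctrl and 0.36 ± 0.15 against si-Elk1 did not pass (adjusted p = 0.123 and 0.119). After median centring they were 0.56 and 0.73 and passed (adjusted p = 0.0187 and 0.00767). The change in si-Elk1 was -0.04 ± 0.15.

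The E-box CACGTG, the site that MYC and its MAX partners share, is in 7.26% of the 35116 windows. It was found once in the windows of MNT, MYBL2 and MXD4 and in none of MXI1, MXD1, MAX or MYB. The stretches around it are shown because they lie in genes described here, with the E-box in capitals (GRCh38.p14; MNT chr17:2401228-2401273, minus strand; MYBL2 chr20:43666864-43666896, plus strand; MXD4 chr4:2262322-2262359, minus strand):
MNT: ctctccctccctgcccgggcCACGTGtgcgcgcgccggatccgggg
MYBL2: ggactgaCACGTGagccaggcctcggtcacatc
MXD4: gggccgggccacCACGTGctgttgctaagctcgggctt
Neither MNT nor MYBL2 passed the test in any comparison, and MXD4 has no value. The letters TTTGAA of the CHR element, known from promoters of late cell cycle genes, are in 15.2% of all windows and in none of these 7 genes. The MYB site CAACTG is in 11.4% of all windows and, of these genes, in that of MXD1. Windows of MYC and MYBL1 were not searched for any of these letters.

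In the MYB family MYBL1 showed the change with the smallest p of the 8 genes. Its si-Med23 arrays, in the order A, B and C, read 6.79, 6.37 and 7.46, against 7.58, 7.39 and 6.63 with the si-Elk1 oligos A, B and C, and 9.07, 9.02 and 9.25 in si-Ctrl. All 6 knockdown arrays were below all 3 control arrays, by more than 1 log2 unit, and all 9 were over the filter level. MYBL1 fell in si-Med23, with a log2 fold change of -2.24 ± 0.31, to 21.2% of the control level (adjusted p = 0.00239). It also fell in si-Elk1, with -1.91 ± 0.31, to 26.6% (adjusted p = 0.0178). Between the knockdowns its log2 fold change was -0.32 ± 0.31, with the arrays overlapping (adjusted p = 0.464). The fall in si-Med23 passed under every alternative in which the probe set was tested, with adjusted p between 2.45e-05 and 0.0129. The call in si-Elk1 was lost in 6 of 23 alternatives, among them leaving out any 1 control array (adjusted p = 0.0552, 0.0548 and 0.0711), using no filter on level (0.0618) and with the MYBL1 probe sets averaged (-0.59, adjusted p = 0.185).

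The 3 MYBL1 probe sets did not move alike. The next in brightness read 6.33, 6.26 and 3.61 in si-Med23, 7.01, 6.26 and 5.86 in si-Elk1 and 6.35, 6.58 and 6.52 in si-Ctrl, near the filter level. Its log2 fold changes of -1.08 ± 0.66 and -0.11 ± 0.66 did not pass (adjusted p = 0.225 and 0.937). The dimmest was under the level in its mean, with 7 of 9 arrays below it, and its log2 fold changes were 0.14 and 0.24. The call on MYBL1 therefore rests on the brightest of its probe sets.

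**Figure D2:**
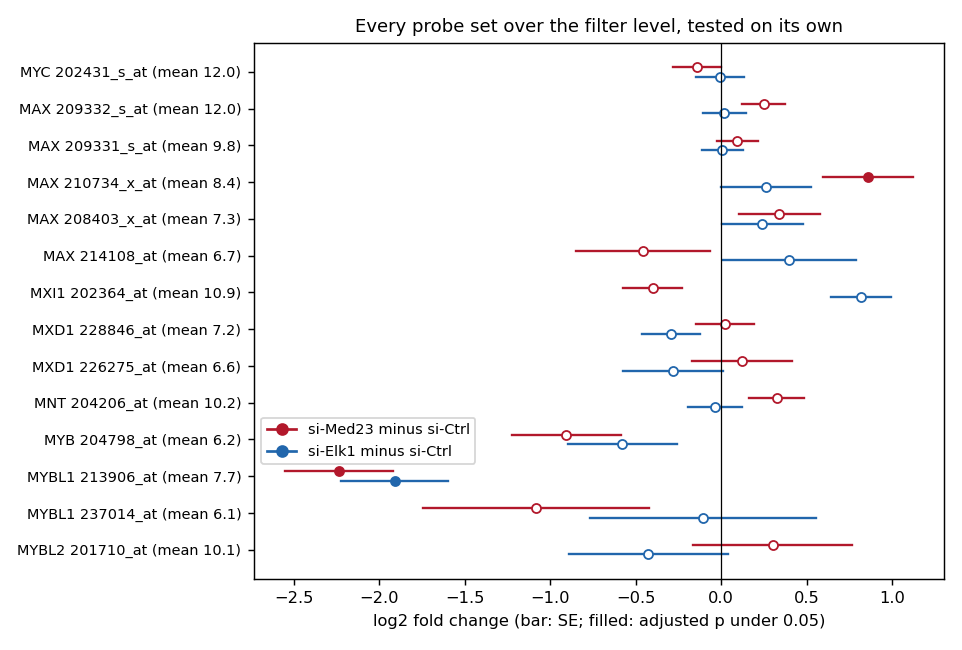
Log2 fold changes of the 14 probe sets over the filter level, each tested on its own, in si-Med23 (red) and si-Elk1 (blue) against si-Ctrl; bars are SE, filled points have a limma adjusted p under 0.05, and labels give the mean log2 signal over the 9 arrays. In MAX and MYBL1 the probe sets of the same gene differ in size or direction of change, and MXI1 in si-Elk1 does not pass when probe sets are tested this way.

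MYB itself was dim. It read 5.82, 6.25 and 5.23 in si-Med23, 5.86, 6.06 and 6.37 in si-Elk1 and 7.05, 6.87 and 6.09 in si-Ctrl. Control array 3 lay below the array with si-Med23 oligo B, so the groups overlapped, and 3 of the 9 arrays were under the filter level. The log2 fold change in si-Med23 was -0.91 ± 0.32, to 53.3% of the control level, and passed narrowly (adjusted p = 0.0486). That call was lost in 16 of the 22 alternatives that gave a value, with adjusted p over all of them between 3.87e-05 and 0.144. With signals raised to the filter level the change was -0.55 (adjusted p = 0.0815). In si-Elk1 it was -0.58 ± 0.32 (adjusted p = 0.282). The other MYB probe set was under the level on every array.

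MYBL2 differed between the si-Med23 arrays, which each carried a different oligo, so oligo and array cannot be told apart. It read 10.99 and 11.21 with oligos A and B but 9.26 with oligo C, 9.32, 9.78 and 10.18 with the si-Elk1 oligos A, B and C, and 10.27, 10.27 and 10.02 in si-Ctrl. The arrays with oligos A and B had the highest values of the 9 arrays and that with oligo C the lowest. The SD of 1.07 in si-Med23 thus exceeded the 0.14 of si-Ctrl. The log2 fold change in si-Med23 was 0.30 ± 0.46 (adjusted p = 0.629). Without oligo C it was 0.91 (adjusted p = 0.027), and without oligo B it was -0.06. In si-Elk1 the change was -0.43 ± 0.46 (adjusted p = 0.584), with a 95% interval from -1.48 to 0.63. Between the knockdowns it was 0.73 ± 0.46 (adjusted p = 0.273), and 1.34 without si-Med23 oligo C (adjusted p = 0.0197).

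**Figure D3:**
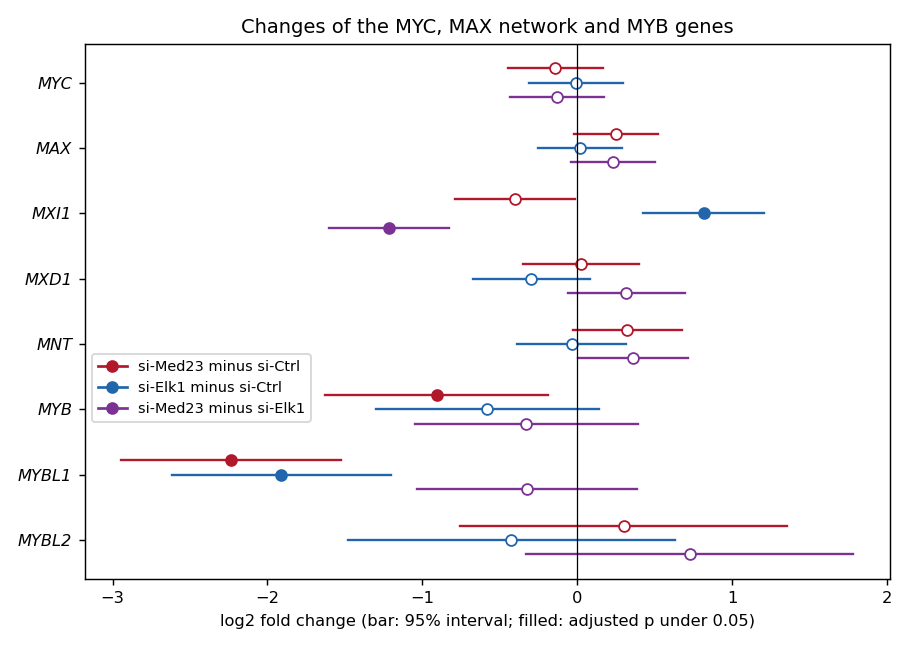
Log2 fold changes of the 8 genes in the 3 comparisons, with 95% intervals and filled points where the limma adjusted p is under 0.05. MYBL1 lies at -2.24 in si-Med23 and -1.91 in si-Elk1, MXI1 lies at 0.82 in si-Elk1, and the intervals of MYC include 0 in each comparison.

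Counted by overlap of arrays, 4 of the 8 genes (MAX, MXI1, MNT and MYBL1) did not overlap between si-Med23 and si-Ctrl, against 57.3% of all tested genes. Between si-Elk1 and si-Ctrl it was 2 (MXI1 and MYBL1), against 36.3%, and between si-Med23 and si-Elk1 2 (MXI1 and MNT), against 38%. Under each scaling tried MYBL1 stayed negative in both knockdowns and MXI1 stayed positive in si-Elk1 and negative in si-Med23. The scaled change of MXI1 in si-Elk1 was 0.18 with the poly-A spikes, where it did not pass (adjusted p = 0.581).

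**Figure D4:**
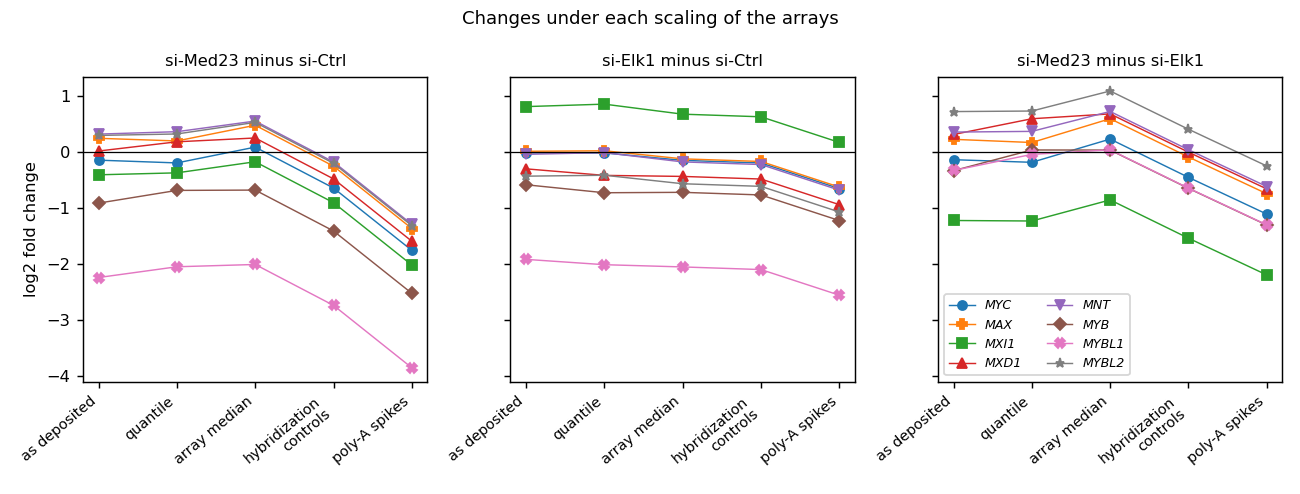
Log2 fold changes of the 8 genes as deposited, after quantile normalization and median centring, and with scaling on the hybridization controls or the poly-A spikes; lines join the values of 1 gene. Poly-A spike scaling takes all 8 genes below 0 in si-Med23, and MYBL1 is the lowest under each scaling in both knockdowns.

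The genes whose pattern was most like that of MYC, by the root mean square difference of log2 signals over the 9 arrays after centring on the control mean, were MOB1A (0.0626), GART (0.063) and NMT1 (0.0688). For MYBL2 they were KRT4 (0.214), IGFBPL1 (0.224) and EFEMP1 (0.3). KRT4 read 9.58, 9.87 and 8.20 on the si-Med23 arrays A, B and C, against 8.72, 8.95 and 8.92 in si-Ctrl. As with MYBL2, the arrays with oligos A and B were above the controls and that with oligo C below them. KRT4 was picked for its likeness to MYBL2 on these same arrays, so the shared pattern is no separate evidence.

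Of 7 other genes of the MAX network 5 were tested in si-Med23, and 1 rose, 1 fell and 3 did not pass. That share of calls is close to the 39.8% of all genes. The list had a median log2 fold change of 0.36 against 0.09 for all genes tested. MXD3, a MAX-binding repressor, rose by 1.44 ± 0.23 (adjusted p = 0.00313), and MGA, a repressor that also binds MAX, fell by 1.63 ± 0.40 (adjusted p = 0.0136). MLX and MLXIP, partners in the parallel network of sugar sensing, had changes of 0.36 and 0.31 that did not pass. In si-Elk1 none of the 5 passed by limma, and none had an unadjusted p under 0.05, which 3162 of all 12616 genes had. MYCL was at 1.08 ± 0.52 (adjusted p = 0.233), MXD3 at 0.30 and MGA at -0.51. The rise of MXD3 in si-Med23 was measured with the deposited scaling, and the median of the list turned negative with hybridization control and poly-A spike scaling.

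Of 36 genes long known as activated by MYC, mostly of ribosome production and biosynthesis, 28 were tested. In si-Med23 4 rose, 6 fell and 18 did not pass, against 39.8% of all genes called, with a median of -0.01. NOP58, a small nucleolar RNP protein, fell by 2.00 ± 0.23 (adjusted p = 0.00184). PPAT, the first enzyme of purine synthesis, fell by 1.09 ± 0.23 (adjusted p = 0.00821) and UTP20, a ribosome biogenesis factor, fell by 1.45 ± 0.34 (adjusted p = 0.0115). NOP16, a nucleolar protein, rose by 0.57 ± 0.13 (adjusted p = 0.00999). In si-Elk1 none of the 28 passed by limma, where 3 of them and 3162 of all 12616 genes had an unadjusted p under 0.05. The list median there was -0.04. NOP58, NOLC1 and UTP20 had changes of -0.91, -0.46 and -0.81 there, each lowest on the array with oligo C. With the si-Elk1 oligos A, B and C NOP58 read 11.91, 11.78 and 10.98, and UTP20 read 8.53, 8.45 and 7.43. The median and the counts in si-Med23 moved with the scaling. Of the 28, 1 was higher and 9 lower after quantile normalization, 9 higher and 3 lower after median centring (median 0.22), and none higher with 16 lower on the hybridization controls. All 28 were lower on the poly-A spikes (median -1.62).

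Of 6 genes known as repressed by MYC, all tested, 2 rose in si-Med23, none fell and 4 did not pass (median 0.23), a share of calls below the 39.8% of all genes. These were CDKN1A, a cyclin-dependent kinase inhibitor (0.89 ± 0.16, adjusted p = 0.00482), and NDRG2 (0.92 ± 0.28, adjusted p = 0.0293). CDKN1B and GAS1 had changes of 0.20 and -0.35 there. In si-Elk1 none passed by limma, where 4 of the 6 and 3162 of all 12616 genes had an unadjusted p under 0.05. The list median there was 0.49 against 0.05 for all genes. NDRG1, a stress-responsive gene, had a change of 1.02 ± 0.24 (adjusted p = 0.0526), CDKN1A one of 0.62 ± 0.16 (adjusted p = 0.0644) and NDRG2 one of 0.83 ± 0.28 (adjusted p = 0.113). The medians turned negative with poly-A spike scaling in both knockdowns, and in si-Med23 also with hybridization control scaling.

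Of 18 MYC cofactors and turnover factors 16 were tested, and in si-Med23 1 rose, 3 fell and 12 did not pass (median -0.06), a share of calls below the 39.8% of all genes. The balance depended on the scaling, with 1 higher and 1 lower after quantile normalization, 4 higher and 1 lower after median centring, and none higher with 8 and 16 lower on the hybridization controls and poly-A spikes. CIP2A, an inhibitor of the phosphatase that destabilises MYC protein, fell by 2.04 ± 0.31 (adjusted p = 0.00276). SKP2 and FBXW7, substrate receptors of ubiquitin ligases that act on MYC, fell, with -0.33 ± 0.10 and -0.45 ± 0.14 (adjusted p = 0.0325 and 0.0367). WDR5, a chromatin cofactor of MYC, rose by 0.55 ± 0.14 (adjusted p = 0.0159). In si-Elk1 none passed by limma, where 1 of the 16 and 3162 of all 12616 genes had an unadjusted p under 0.05. CIP2A was at -1.08 ± 0.31 (adjusted p = 0.0821), KAT2A at -0.30 and SKP2 at -0.22. The array measures RNA, and MYC protein was not measured.

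Of 12 genes listed for the MuvB complex, the DREAM complex and FOXM1, 11 were tested. In si-Med23 2 rose, 4 fell and 5 did not pass (median -0.05), where 20.3% of all genes were higher and 19.5% lower. These counts depended on the scaling, with 2 higher and 3 lower after median centring. On the hybridization controls and poly-A spikes none was higher, with 8 and 11 lower, so the rises hold for the deposited scaling. RBBP4, a histone-binding subunit of MuvB, rose by 0.68 ± 0.12 (adjusted p = 0.00493). RBL1 and RBL2, the pocket proteins p107 and p130, fell, with -1.47 ± 0.32 and -0.94 ± 0.23 (adjusted p = 0.009 and 0.0132), and LIN9, a MuvB core subunit, fell by 1.39 ± 0.34 (adjusted p = 0.0127). FOXM1, the forkhead factor that follows MYBL2 at mitotic genes, had a change of -0.01 ± 0.14 in si-Med23. In si-Elk1 none of the 11 passed by limma, where 2 of them and 3162 of all 12616 genes had an unadjusted p under 0.05. FOXM1 was at -0.59 ± 0.14 (adjusted p = 0.0575), RBL1 at -0.85 and TFDP1, an E2F partner, at -0.25. RBL1 read 8.23, 7.90 and 6.99 with the si-Elk1 oligos A, B and C, so its change leaned on oligo C.

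The late cell cycle genes that MYBL2, MuvB and FOXM1 serve were lower in part. Of 22 listed, all tested, 1 rose, 11 fell and 10 did not pass in si-Med23. Of all genes 20.3% were higher and 19.5% lower there. The list had a median of -0.31 against 0.09 for all genes, and the list median was negative under each scaling. CDK1, the mitotic kinase, fell by 1.49 ± 0.16 (adjusted p = 0.00184), TTK, a checkpoint kinase, fell by 1.43 ± 0.19 (adjusted p = 0.00228), TOP2A, a topoisomerase, fell by 2.25 ± 0.32 (adjusted p = 0.00245) and BUB1, a kinetochore kinase, fell by 1.07 ± 0.17 (adjusted p = 0.00299). In si-Elk1 1 fell and 21 did not pass, where 1.19% of all genes were lower, with a median of -0.27 against 0.05 for all genes. The gene that fell was CDK1 (-0.75 ± 0.16, adjusted p = 0.0411), while CCNA2, cyclin A2, was at -0.71 and TTK at -0.76. The count of 1 in si-Elk1 was 0 to 20 under the alternatives. In si-Med23 against si-Elk1 1 was higher and 5 were lower, where 9.54% of all genes were higher and 12.2% lower. The list median in that comparison was 0.01 against -0.03 for all genes. Mitotic genes were already known to be lower in these si-Med23 samples when the list was drawn up, so it is no independent evidence of direction.

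**Figure D5:**
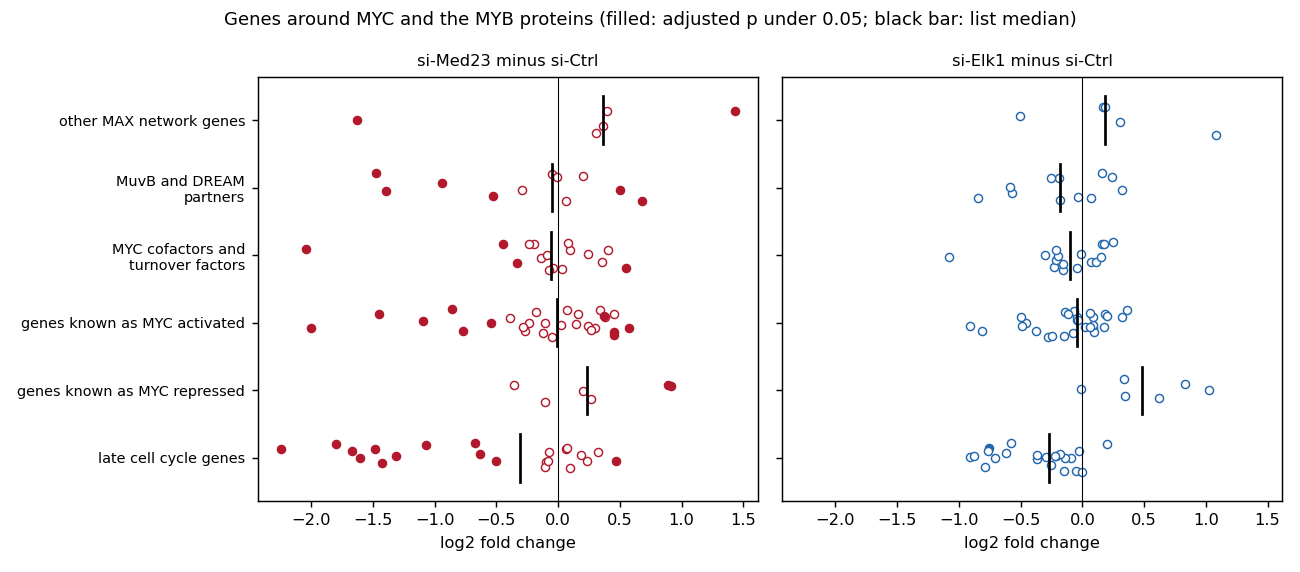
Log2 fold changes against si-Ctrl of the tested genes in 6 lists around MYC and the MYB proteins, for si-Med23 and si-Elk1; points are genes, filled where the limma adjusted p is under 0.05, and black bars are list medians. Late cell cycle genes have a median of -0.31 in si-Med23 and -0.27 in si-Elk1, and genes known as MYC activated have medians of -0.01 and -0.04.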

How the data were processed

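The deposited data are intensities, 1 linear signal per probe set and array. RMA and MAS5 are both named in the submitters' processing notes, without saying what each was used for. The 2% trimmed mean was 500.1 on each array, so the values were scaled to equal it, which removes any change in total messenger RNA. Detection calls were not used. For the genome build, nothing is stated in the labels or files.

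Values were analysed as log2(value + 1), which slightly lowers fold changes of dim genes. Of the identifiers of 41091 probe sets with 1 gene, 41043 were found in RefSeq (GRCh38.p14). Tests used limma 3.58.1 in R 4.3.3 (lmFit, eBayes, two-sided, no block). The fit was also run on simulated data with independent noise and few changed genes. That setting differs from these samples, so nothing here rests on it. Intervals use limma's moderated SE. No 2 arrays were duplicates (highest correlation 0.93). The 62 control probe sets were left out.

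The members and gene lists were chosen with earlier results of these data known. Named genes are the members, MED23 and ELK1, in each list up to 4 genes with the smallest p in si-Med23 and 3 in si-Elk1, and the nearest patterns of MYC and MYBL2. RefSeq windows were searched for 7 of the 9 genes, and those of MYC and MYBL1 were left out. Alternatives changed the filter, probe set choice, scaling, pseudocount, floor, prior, weights, block and arrays.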

Additional observations from a re-analysis of the deposited data

How the results depend on the processing

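In the settings that gave a value, the fall of MYBL1 in si-Med23 and the lower MXI1 in si-Med23 than in si-Elk1 kept their call. The number of the 8 genes called in si-Med23 against si-Ctrl was 2. It was 1 with no filter on low signals, with probe sets of a gene averaged, without probe sets ending in _x_at or _s_at, with each probe set tested alone, after quantile normalization, with the 6 arrays compared, with the filter level as floor and with a trended prior. It was 0 with the stricter filter, which leaves out MYB and MYBL1, 3 after median centring (MAX, MNT and MYBL1) and with array weights (MXI1, MYB and MYBL1), and 4 and 8 with hybridization control and poly-A spike scaling. In si-Elk1 against si-Ctrl it was 2, and 0 with no filter. It was 1 with the stricter filter, averaged or single probe sets, median centring and hybridization scaling, and 6 with poly-A scaling. In si-Med23 against si-Elk1 it was 1, and 2 after quantile normalization, hybridization scaling or array weights, 4 after median centring and 6 with poly-A scaling. Leaving out each array in turn gave 1 to 3, 0 to 2 and 1 to 2. The share of all genes called ran from 18.4% to 94.3%, 0.602% to 39.6% and 4.95% to 81.3%, against 39.8%, 4.26% and 21.7%. Between the knockdowns it was 6.1%, 7.1% and 35.6% without the si-Elk1 array of oligo A, B and C.

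The replicate numbers were not used to pair the samples. Same-numbered arrays of different groups had correlations of their deviations from -0.176 to 0.0462, and differently numbered ones from -0.0566 to 0.121. With 3 arrays per group the deviations within a group depend on each other, so these correlations cannot settle whether samples were paired. With the replicate block 1, 0 and 1 of the genes were called in the 3 comparisons, and 32.6%, 1.28% and 10.5% of all genes. MYBL1 in si-Elk1 then had an adjusted p of 0.0553.

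Signs turned for changes that had not passed. In si-Med23 against si-Ctrl, MYC was 0.0928 after median centring. With hybridization scaling MAX, MXD1, MNT and MYBL2 were -0.247, -0.474, -0.172 and -0.196, and with poly-A spikes -1.36, -1.59, -1.28 and -1.31. MAX was -0.457 without _x_at and _s_at probe sets and MNT -0.152 with averaged ones. With 1 array left out, MXD1 ran from -0.0652 (without oligo C) to 0.0673, and MYBL2 from -0.0587 (without oligo B) to 0.913 (without oligo C). In si-Elk1 against si-Ctrl, left-out arrays gave MYC -0.0648 to 0.0393, MAX -0.0403 to 0.0581 and MNT -0.109 to 0.0544. MAX was -0.117, -0.164 and -0.621 with median, hybridization and poly-A scaling and -0.0365 with array weights, and MNT 0.0677 with averaged probe sets. In si-Med23 against si-Elk1, median centring gave MYC 0.236, MYB 0.0402 and MYBL1 0.0439, and quantile normalization MYB 0.0419. Poly-A scaling gave MAX, MXD1, MNT and MYBL2 -0.74, -0.654, -0.61 and -0.244, and hybridization scaling MAX -0.0836. MAX was -0.855 without _x_at and _s_at probe sets, and MNT -0.22 with averaged ones. Apart from the shifts of scaling, the cause was not tested. Of 432 list counts under the alternatives 281 were within 1.5 times the value given. Signals near the filter level limit MYB and the second MYBL1 probe set most.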

Other observations

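The median deviation of the 22 late cell cycle genes from their control means was -0.16, -0.18 and -0.64 on the si-Med23 arrays A, B and C and -0.34, -0.27 and -0.14 on the si-Elk1 arrays A, B and C. MYBL2 deviated by 0.80, 1.02 and -0.92 on the same si-Med23 arrays and by -0.86, -0.41 and -0.01 on the si-Elk1 arrays. The array with si-Med23 oligo C thus had the lowest value of both measures. The arrays with oligos A and B had late cell cycle medians below 0 and MYBL2 above its controls. The same oligo C array also had the lowest MYC signal, 0.37 log2 units below the control mean. MAX and MXD1 had their highest signal of the 9 arrays there, 0.32 and 0.20 above their control means. MED23 read 7.06 on that array, against 6.79 and 6.19 with oligos A and B.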
